A study of Mus musculus with 6 samples.

Results

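Tuft cells are rare chemosensory cells of the gut epithelium, and 10 genes that mark them were read in whole colons of mice lacking tumour necrosis factor receptor 1 and of wild-type mice. The genes were chosen by name (Dclk1, Trpm5, Gnat3, Pou2f3, Il25, Alox5, Alox5ap, Ptgs1, Hpgds and Avil), and the abundance of each was summed over its transcripts. All 10 were among the 30330 named genes of the deposited table. The knockout animals were 3 mice of genotype Tnfrsf1a-/- (labelled R1ko), set against 3 WT mice. Strain C57Bl/6J is given for every sample of both groups, and the series' design text describes males of 12 weeks. The sources used here do not say which part of Tnfrsf1a was removed, nor whether the groups were littermates. Values are TPM, a transcript abundance corrected for transcript length and library size, so levels can be compared between genes within a library. The labels state only an average read depth for the series and the table holds no counts, so no interval for counting error can be had. The p-values rest on the spread between 3 colons in each group. In limma, the test used across genes, they also draw on the spread of all genes tested.

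Tuft cells use a taste-like cascade: receptors at the apical tuft act through the G protein gustducin, phospholipase C and the cation channel Trpm5. Their output includes the cytokine IL-25, which acts on group 2 innate lymphoid cells, and lipid mediators made from arachidonic acid, the leukotrienes and prostaglandin D2. The lineage depends on the transcription factor Pou2f3. Some of these genes are not restricted to tuft cells: Alox5, Alox5ap, Ptgs1 and Hpgds are also known from mast cells and macrophages, and Dclk1 and Avil from neurons. In whole colon, fewer cells of a type and less RNA per cell cannot be told apart.

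No difference between R1ko and WT colons was detected for any tuft cell gene tested. The 10 genes were not tested as a group, and 3 were too low to test. Of the 7 that were abundant enough to test, 0 passed the threshold with TPM as deposited (limma, Benjamini-Hochberg adjusted p below 0.05 over 14248 genes). That rule called 0.267% of all genes tested. After median-of-ratios scaling, which corrects for a few very abundant transcripts, 0 of the 7 passed, against 0.0421% of all genes. At an unadjusted p below 0.05, 0 of the 7 were below the limit with TPM as deposited and 1, Avil, after scaling, where the shares over all genes were 3.69% and 11.3%. Relative to most of the other tested tuft cell genes, summed Avil was higher and summed Alox5 lower in R1ko colons. Several ratios between these genes within a library thus separated the groups. These were 8 of 21 ratios, or 38.1%, against 16.5% of the ratios of the 7 genes to any other tested gene. They were looked at after the levels were seen, and they use sums that include minor transcripts listed at 0 in several libraries.

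Among the libraries, WT replicate 2 stood apart. Transcripts with no gene name held 27.4% of its TPM, against 1.86 to 7.23% in the other 5 libraries, and this lowers every other value in it. It was the lowest WT library for 9 of the 10 tuft cell genes, and still for 9 of 10 after scaling. R1ko replicate 2 was the lowest R1ko library for 8 of 10 with TPM as deposited and for 6 of 10 after scaling. Over all genes, 13 were higher and 25 lower in R1ko with TPM as deposited, and 5 were higher and 1 lower after scaling. The targeted gene, Tnfrsf1a, measured 44.2 ± 6.76 TPM in R1ko and 59.4 ± 13.9 TPM in WT (SD, n = 3 each), with overlapping values (log2 fold change -0.41, limma adjusted p = 1), and since the removed part of the gene is not stated, this sum neither checks nor contradicts the labels.

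Sequence before the starts of Dclk1 is shown because transcripts from its 2 start regions were measured separately and are described below. Each stretch holds the 250 bases before a RefSeq start on the plus strand of chromosome 3 (GRCm38, the same build as mm10).
Dclk1 upstream start, chr3:55242114-55242363: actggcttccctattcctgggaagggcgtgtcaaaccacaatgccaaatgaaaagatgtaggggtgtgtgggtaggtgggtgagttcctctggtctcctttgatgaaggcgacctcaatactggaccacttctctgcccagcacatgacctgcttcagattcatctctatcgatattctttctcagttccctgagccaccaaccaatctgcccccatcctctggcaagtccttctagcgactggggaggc
Dclk1 downstream start, chr3:55461478-55461727: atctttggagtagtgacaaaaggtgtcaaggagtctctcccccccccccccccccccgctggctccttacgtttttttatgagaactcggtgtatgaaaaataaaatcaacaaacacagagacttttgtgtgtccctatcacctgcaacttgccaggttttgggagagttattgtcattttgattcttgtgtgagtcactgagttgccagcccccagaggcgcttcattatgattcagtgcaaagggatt

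RefSeq start windows, from 250 bases before to 50 after a start, were at hand for 7 of the 10 genes, 8 windows in all. They were searched for ATGCAAAT, the octamer bound by POU-domain factors, the family of Pou2f3, on both strands (its complement reads ATTTGCAT). The motif was in 1 of the 8, that of Hpgds, and in 1.74% of all 32851 windows of the same length. Its first base lies 174 bases before the RefSeq start of Hpgds but 4 bases inside the transcript ENSMUST00000031982 as GENCODE places it, so its place relative to the start depends on the annotation. A match of letters is a description and does not show binding.

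The 10 genes lie on 8 chromosomes (mm10, GENCODE M21), with Alox5 and Hpgds both on chromosome 6 and Gnat3 and Alox5ap both on chromosome 5. Dclk1 spans 55242364 to 55539068 on chromosome 3 and Avil 127000709 to 127020994 on chromosome 10, both on the plus strand. Trpm5 spans 143069153 to 143094642 on chromosome 7 and Hpgds 65117293 to 65144908 on chromosome 6, both on the minus strand.

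In the order of their levels, Ptgs1 stood highest in every library and Il25 lowest. Alox5ap and Hpgds followed Ptgs1 and changed places between libraries, so no order is given between them. Dclk1, Avil, Trpm5 and Alox5 lay between 0.586 and 2.65 TPM, and their order differed between libraries: Avil was the fourth of the 10 genes in every R1ko library and Dclk1 the fourth in every WT library. Averaged over the 6 libraries, Ptgs1 was above 78.8% of all named genes and Il25 above 33.1%.

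**Figure D1:**
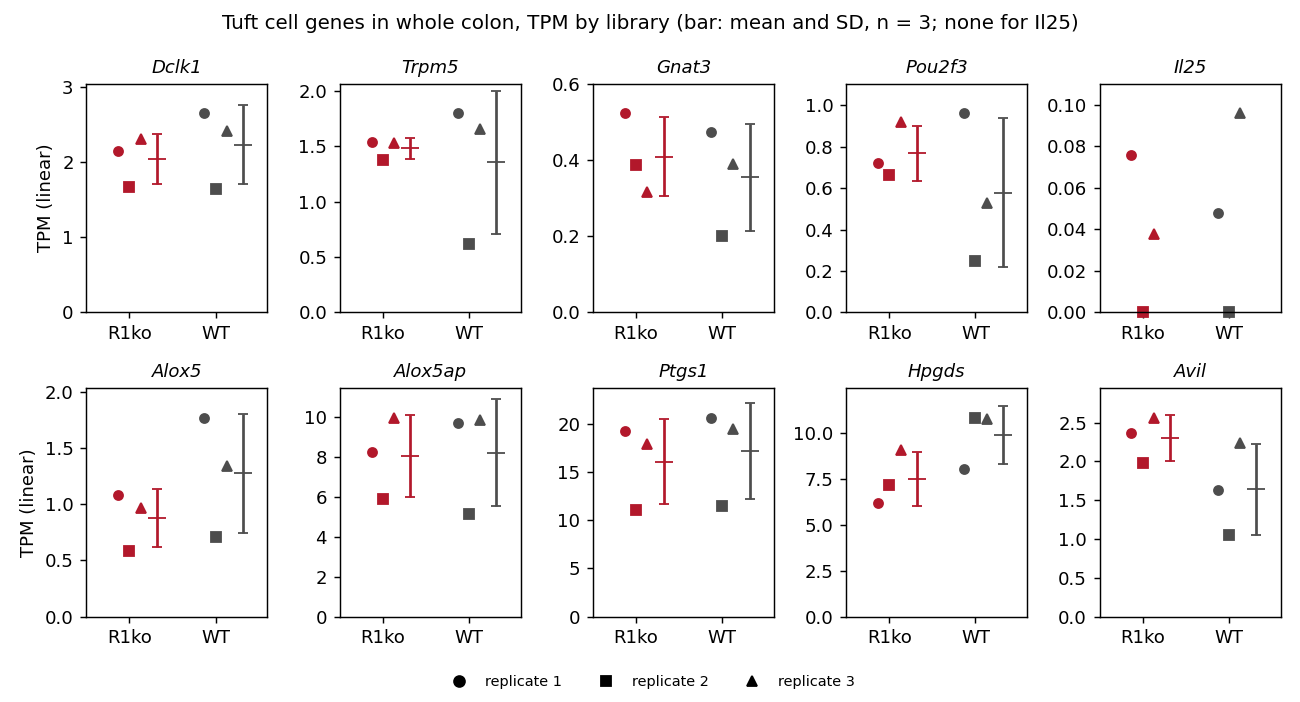
TPM of each of the 10 tuft cell genes on linear axes, one panel a gene, with R1ko left of WT; points are libraries, marked by replicate number, and bars give the mean and SD of 3 libraries (none for Il25, which is listed at 0 in 2 libraries). The groups overlap in every panel, and WT replicate 2 is the lowest WT library for 9 of the 10 genes.

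Pou2f3, the lineage factor, had 0.724, 0.665 and 0.919 TPM in R1ko replicates 1, 2 and 3, and 0.960, 0.246 and 0.528 TPM in WT replicates 1, 2 and 3. The R1ko values lay close together and inside the wide WT range. Its mean was below the 1 TPM needed for the test across genes, and the two-sided exact permutation test, for which 3 colons against 3 cannot go below 0.1, gave p = 0.5.

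The cascade was represented by Gnat3 and Trpm5. Gnat3, the alpha subunit of gustducin, had 0.523, 0.388 and 0.317 TPM in R1ko colons against 0.474, 0.201 and 0.390 TPM in WT colons, and was likewise too low for the test across genes. The groups overlapped, with R1ko replicate 1 highest and WT replicate 2 lowest of the 6 libraries (exact permutation p = 0.7). Trpm5, the calcium-activated cation channel that depolarises the cell, had 1.54, 1.37 and 1.53 TPM in R1ko and 1.79, 0.615 and 1.66 TPM in WT. The R1ko values again lay close together, within the WT range. Its log2 fold change was 0.16, with a 95% interval of -0.49 to 0.81 (limma adjusted p = 1), and it was -0.17 without WT replicate 2.

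Il25, the cytokine that tuft cells send to innate lymphoid cells, was listed at 0.0760, 0 and 0.0378 TPM in R1ko and at 0.0478, 0 and 0.0959 TPM in WT. Replicate 2 of each group was at 0, and no fold change is given at this level.

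Dclk1, a microtubule-associated kinase widely used as a tuft cell marker in mice, had 2.15, 1.67 and 2.31 TPM in R1ko colons against 2.65, 1.64 and 2.41 TPM in WT colons. Replicate 2 was lowest in both groups, and the groups overlapped. The log2 fold change was -0.09 with a 95% interval of -0.67 to 0.48 (limma adjusted p = 1). After scaling the interval was -0.42 to 0.19. The estimate was 0.0171 without R1ko replicate 2 and 0.0176 without WT replicate 1.

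Avil encodes advillin, an actin-binding protein of the villin family found in the microvilli of tuft cells. It had 2.36, 1.98 and 2.56 TPM in R1ko and 1.63, 1.06 and 2.23 TPM in WT, with R1ko replicate 2 below WT replicate 3. Mean levels were 2.30 ± 0.294 TPM in R1ko and 1.64 ± 0.588 TPM in WT (SD, n = 3 each). The log2 fold change was 0.42 ± 0.29 (SE), with a 95% interval of -0.18 to 1.02 (limma adjusted p = 1). After median-of-ratios scaling Avil measured 2.22, 2.16 and 2.40 in R1ko against 1.44, 1.34 and 2.03 in WT, which do not overlap. Among all genes tested, 9.29% were higher in R1ko and 9.18% lower without overlap in the same scaled values, and the scaled log2 fold change of 0.41 did not pass either (limma adjusted p = 0.434, interval 0.02 to 0.79).

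The 4 genes of lipid mediator synthesis had log2 fold changes below 0, with intervals that all include 0, where 55.7% of all genes tested were above 0. For Ptgs1 and Alox5ap the sign turned when single libraries were left out, with values up to 0.15 for Ptgs1 and up to 0.19 for Alox5ap, both without R1ko replicate 2. Ptgs1, cyclooxygenase 1, makes the prostaglandin H2 from which all prostaglandins derive. It had 19.3, 11.1 and 17.99 TPM in R1ko colons and 20.7, 11.5 and 19.5 TPM in WT colons. Its 2 low libraries were replicate 2 of each group, and the log2 fold change was -0.09 (95% interval -0.60 to 0.42).

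Hpgds, the haematopoietic synthase that turns prostaglandin H2 into prostaglandin D2, had 6.22, 7.18 and 9.11 TPM in R1ko and 8.06, 10.9 and 10.8 TPM in WT. R1ko replicate 3 overlapped WT replicate 1. This was the one tuft cell gene for which WT replicate 2 was the highest WT library. Means were 7.50 ± 1.47 TPM in R1ko and 9.89 ± 1.59 TPM in WT (SD, n = 3 each), a log2 fold change of -0.38 ± 0.24 (SE; 95% interval -0.86 to 0.10, limma adjusted p = 1). Under all alternatives run the log2 fold change lay between -0.52 and -0.18 and did not pass. It was -0.18 after scaling with WT replicate 2 left out, an alternative chosen after seeing the data.

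Alox5, the 5-lipoxygenase that starts leukotriene synthesis, had 1.08, 0.586 and 0.963 TPM in R1ko colons and 1.77, 0.712 and 1.34 TPM in WT colons. R1ko replicates 1 and 3 lay between WT replicates 2 and 3. Its log2 fold change was -0.34 (95% interval -1.01 to 0.33, limma adjusted p = 1). Alox5 lies on chromosome 6 at 116410077 to 116461178 (mm10), 8.89 Mb from Tnfrsf1a, and DNA that travels with the targeted locus and the loss of the receptor cannot be told apart there. Alox5ap, the membrane protein that presents arachidonic acid to 5-lipoxygenase, had 8.26, 5.88 and 9.98 TPM in R1ko and 9.69, 5.13 and 9.84 TPM in WT. The 2 groups covered almost the same range, with a 95% interval of -0.54 to 0.53 for the log2 fold change.

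**Figure D2:**
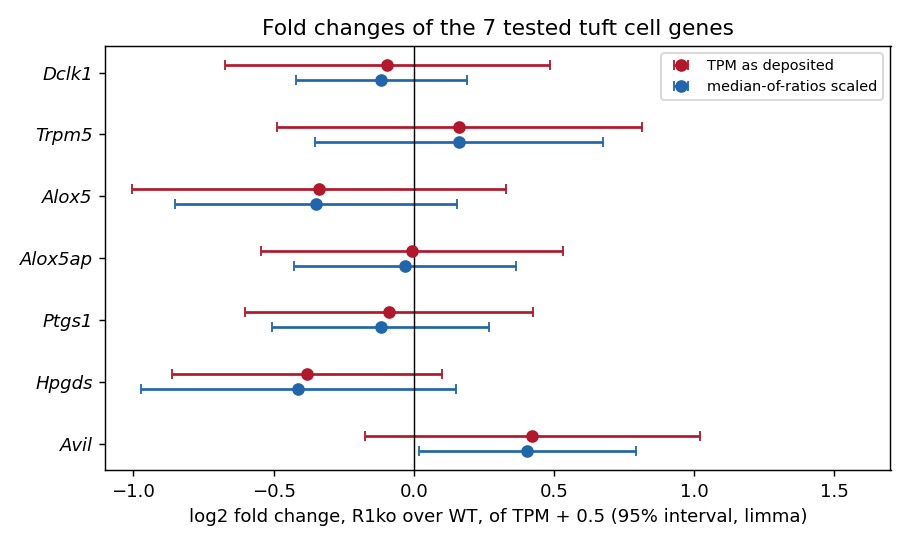
Log2 fold changes (R1ko over WT, of TPM + 0.5) of the 7 tested tuft cell genes with 95% intervals from limma, for deposited TPM (red) and TPM scaled by median of ratios (blue). The intervals include 0 for all 7 genes as deposited, and after scaling Avil alone has an interval, 0.02 to 0.79, that does not.

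The median log2 fold change of the 7 tested genes was -0.09, and that of all genes tested was 0.02. For Dclk1, Trpm5 and Avil, the tested genes of the 6 outside lipid mediator synthesis, the median was 0.16, and for the 4 lipid mediator genes it was -0.21. Since Dclk1 and Avil are also known from neurons, these medians do not set tuft cells against other cells. Without WT replicate 2 these medians were -0.30 for the 7 genes, -0.17 for the 3 and -0.33 for the 4, when that of all genes was -0.13.

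Ratios between genes of the same library do not depend on how much of its TPM other transcripts take. Of the 21 ratios among the 7 genes, 8, or 38.1%, did not overlap between R1ko and WT. Over all ratios of one of the 7 genes to any other tested gene, 16.5% did not overlap. Avil took part in 5 of these 8 ratios and Alox5 in 4, and each took part in 6 of the 21. Ratios that share a gene are not independent, and these were looked at after the levels were seen.

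Dclk1 over Avil was 0.911, 0.839 and 0.901 in R1ko replicates 1, 2 and 3 and 1.62, 1.55 and 1.08 in WT replicates 1, 2 and 3. By these sums, Avil was the more abundant of the pair in every R1ko library, and Dclk1 was in every WT library (exact permutation p = 0.1, the smallest possible). Ptgs1 over Avil gave 8.17, 5.57 and 7.02 in R1ko, against 12.7, 10.9 and 8.75 in WT. Hpgds over Avil stood at 2.64, 3.62 and 3.55 in R1ko, against 4.95, 10.3 and 4.82 in WT. Relative to Dclk1, Ptgs1, Hpgds and Alox5ap, summed Avil was thus higher in R1ko than in WT colons. Of these 4 it exceeded only Dclk1 in level, and its ratio to Trpm5 overlapped.

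Summed Alox5 was lower in R1ko than in WT colons relative to 4 of the 6 genes. Trpm5 over Alox5 was 1.43, 2.34 and 1.59 in R1ko and 1.01, 0.864 and 1.24 in WT. Ptgs1 over Alox5 was 17.9, 18.9 and 18.7 in R1ko and 11.7, 16.2 and 14.6 in WT. Alox5ap and Avil were higher relative to Alox5 in the same way, and the ratios of Alox5 to Dclk1 and Hpgds overlapped.

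**Figure D3:**
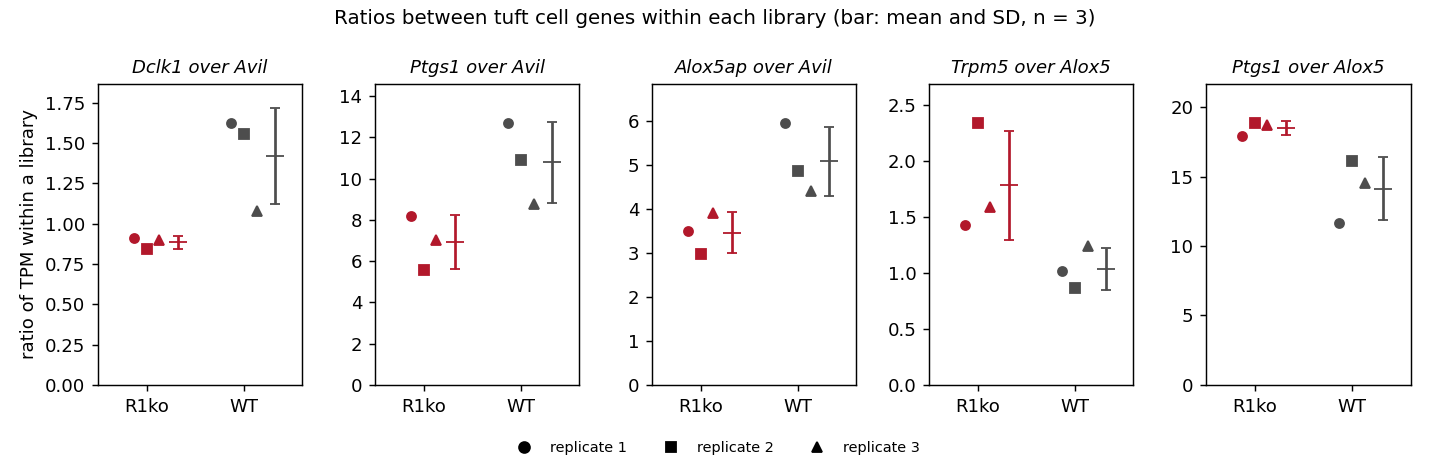
Ratio of TPM, summed over all transcripts of a gene, between pairs of tuft cell genes within each library, on linear axes, with R1ko left of WT. Points are libraries and bars give the mean and SD of 3. Dclk1 over Avil is at most 0.911 in R1ko and at least 1.08 in WT, and Ptgs1 over Alox5 is at least 17.9 in R1ko and at most 16.2 in WT.

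Single transcripts were read to see where these differences lie. The table held 34 transcripts of the 10 genes, of which 8 were abundant enough to test, and 0 passed the threshold in limma over 31056 transcripts (0.0419% of all transcripts passed). At an unadjusted p below 0.05 the count was also 0, against 5.02% of all transcripts.

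For Hpgds, the 6-exon protein-coding transcript ENSMUST00000031982, had 5.54, 5.72 and 6.32 TPM in R1ko and 6.59, 8.72 and 8.60 TPM in WT. These values do not overlap, the only such case among the 8 tested transcripts, where 3.96% of all transcripts were lower and 4.23% higher in R1ko without overlap. Its log2 fold change was -0.41 ± 0.22 (SE; 95% interval -0.89 to 0.07, limma adjusted p = 0.996). The retained-intron transcript ENSMUST00000170252 had 0.683, 1.46 and 2.79 TPM in R1ko and 1.48, 2.14 and 2.16 TPM in WT. It spread more widely in R1ko, and R1ko replicate 3 was the highest library of all.

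The more abundant Avil transcript annotated as principal, ENSMUST00000026500, had 1.39, 1.58 and 1.53 TPM in R1ko and 1.49, 0.909 and 1.62 TPM in WT, so the groups overlapped. Another annotated as principal, the 19-exon ENSMUST00000129173, had 0.111, 0 and 0.260 TPM in R1ko and 0.144, 0.146 and 0 TPM in WT. A 5-exon transcript, ENSMUST00000142698, was listed at 0.863, 0 and 0.776 TPM in R1ko and at 0, 0 and 0.611 TPM in WT. A 4-exon transcript, ENSMUST00000126816, was listed at 0.408 TPM in R1ko replicate 2 and at 0 elsewhere. These short transcripts, each at 0 in several libraries, make up much of the distance between the groups in summed Avil. They are therefore also part of the Avil ratios above, which were not taken with ENSMUST00000026500 alone. Summed Dclk1 exceeded ENSMUST00000026500 in all 6 libraries, so the change of order between Dclk1 and Avil rests on the other Avil transcripts. Transcripts of one gene share exons, and the division of reads among them is an estimate.

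Alox5 showed a similar split. Its principal transcript, ENSMUST00000026795 with 14 exons, had 0.905, 0.439 and 0.912 TPM in R1ko and 1.02, 0.646 and 1.13 TPM in WT. A 2-exon retained-intron transcript, ENSMUST00000169625, was at 0.722 TPM in WT replicate 1 and at no more than 0.047 TPM in any other library. It is part of the 1.77 TPM of Alox5 in that library, the highest of the 6, and so of the Alox5 ratios above. The principal transcript itself overlapped between the groups. Those ratios were not taken with it alone, so a lower Alox5 relative to other genes is shown for the sums only.

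Dclk1 was divided between its 2 starts. A pair of transcripts begins at 55242526, past the upstream stretch printed above, and 1 begins at 55461758, past the downstream stretch. In sum the upstream transcripts had 1.41, 0.902 and 1.43 TPM in R1ko and 1.72, 1.22 and 1.76 TPM in WT. The downstream transcript, ENSMUST00000070418, had 0.743, 0.763 and 0.877 TPM in R1ko and 0.927, 0.416 and 0.648 TPM in WT. Its share of Dclk1 TPM was 34.6, 45.8 and 38.0% in R1ko, against 35.0, 25.3 and 26.9% in WT. The shares overlapped by a narrow margin, between R1ko replicate 1 and WT replicate 1 (exact permutation p = 0.2).

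**Figure D4:**
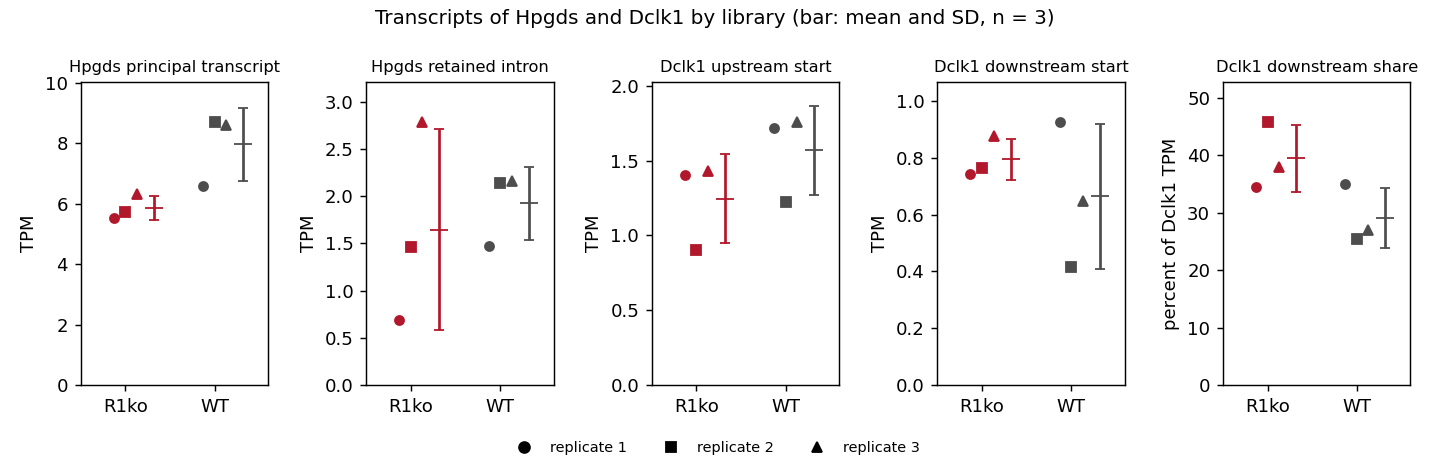
TPM of 2 Hpgds transcripts, of Dclk1 transcripts summed by start region, and the share of Dclk1 TPM from the downstream start, by library, with R1ko left of WT and bars for the mean and SD of 3. The principal Hpgds transcript separates the groups (at most 6.32 TPM in R1ko, at least 6.59 TPM in WT), and the other panels overlap.

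Trpm5 was spread over 8 transcripts, all of them below 1 TPM on average. The largest, the 5-exon ENSMUST00000148715, had 0.887, 0.887 and 0.703 TPM in R1ko and 1.32, 0.380 and 0.969 TPM in WT. The 25-exon transcript that starts at the upstream end of the gene, ENSMUST00000009390, had 0.168, 0.133 and 0.516 TPM in R1ko and 0.342, 0.194 and 0.356 TPM in WT. Both overlapped between the groups. A transcript annotated for nonsense-mediated decay, ENSMUST00000150867, had 0.310, 0.291 and 0.239 TPM in R1ko and 0.128, 0 and 0.158 TPM in WT, which do not overlap, but it was too low to test. It was named after its values were seen, and 2.12% of all transcripts too low to test were higher in R1ko without overlap.

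Other genes of tuft cells were read from 3 lists of 42 genes, and 25 were abundant enough to test. In limma 0 of them passed in either direction, where 0.0912% of all genes were called higher and 0.175% lower, and 1, Atoh1, had an unadjusted p below 0.05, as did 3.69% of all genes. After scaling 4 of the 25 had, Atoh1, Ptpn6, Espn and Ltc4s, against 11.3% of all genes, and 0 passed. Their median log2 fold change was 0.09, against 0.02 for all genes. Several of the 25 stood far above Dclk1, Trpm5 and Avil (means over the libraries 2.14, 1.42 and 1.97 TPM), such as Krt18 (311), Vil1 (292) and Lrmp (182). How much of these levels comes from tuft cells was not tested, so this median need not describe tuft cells. Of the signalling list, 2 of 11 were tested, the inositol trisphosphate receptor genes Itpr2 and Itpr3, with log2 fold changes of 0.21 and 0.05. Both receptors are broadly expressed and release calcium from internal stores.

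The tuft-selective members of the signalling list were low in every library. Plcb2, the phospholipase of the taste cascade, was at 0.598, 0.279 and 0.722 TPM in R1ko and 0.428, 0.483 and 1.03 TPM in WT, and the gustducin partner Gng13 did not exceed 0.281 TPM. Sucnr1, the receptor through which tuft cells sense succinate in the mouse small intestine, had 0.356, 0.193 and 0.200 TPM in R1ko and 0.112, 0.0665 and 0.0940 TPM in WT. Its groups did not overlap, and neither did those of the marker gene Sh2d7, with 0.339, 0.383 and 0.336 TPM in R1ko and 0.259, 0.0836 and 0.284 TPM in WT. Both were too low to test and were picked out after their values were seen. Of all genes too low to test, 2.06% were higher in R1ko without overlap.

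Of 9 lineage factors, 6 were tested (median 0.03), and those with the smallest p were Atoh1 and Hes1. Atoh1, the factor of secretory cell fate, had 37.3, 35.8 and 36.7 TPM in R1ko and 33.9, 16.3 and 28.2 TPM in WT, a log2 fold change of 0.54 that did not pass (limma adjusted p = 1). It was the 1 gene of the 25 whose groups did not overlap, higher in R1ko, as were 3.17% of all genes tested. Hes1, its repressor under Notch signalling, had 59.1, 65.7 and 117.5 TPM in R1ko and 114.2, 76.2 and 102.9 TPM in WT. The third list, of 22 further genes listed as tuft cell markers, had 17 tested genes and a median of 0.09. Its smallest p-values belonged to the phosphatase gene Ptpn6 (log2 fold change -0.33) and the leukotriene C4 synthase gene Ltc4s (-0.31), neither of which passed.

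Genes around the eicosanoid enzymes were also read. Of 21 listed, 15 were tested, 0 passed and the median was 0.06. Ptges, the inducible prostaglandin E synthase, had 8.03, 6.04 and 7.18 TPM in R1ko and 10.6, 9.02 and 13.2 TPM in WT. These groups did not overlap, where 1.82% of all genes were lower in R1ko without overlap. The log2 fold change was -0.59 ± 0.23 (SE), short of the threshold (limma adjusted p = 0.917). Ltc4s, which joins leukotriene A4 to glutathione, had 5.47, 4.90 and 7.61 TPM in R1ko and 8.45, 5.70 and 8.52 TPM in WT, with overlap.

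The cytokines of the type 2 circuit on which IL-25 acts differed widely in level. Il13 and Il5 did not exceed 0.0580 TPM in any library and Il9 was listed at 0 in all 6. Il4 had 3.43, 3.66 and 2.56 TPM in R1ko and 3.57, 1.67 and 2.44 TPM in WT, with overlap, and a log2 fold change of 0.32 that did not pass. Of 15 genes, 9 were tested and 0 passed (median 0.04). Those with the smallest p were Areg, an epidermal growth factor receptor ligand, and the IL-13 receptor gene Il13ra1. Areg had 37.3, 45.4 and 39.4 TPM in R1ko and 56.3, 15.0 and 29.0 TPM in WT. Il13ra1 had 51.1, 47.1 and 46.9 TPM in R1ko and 45.2, 32.01 and 45.7 TPM in WT. It was the 1 gene of the 9 whose groups did not overlap, higher in R1ko, as were 3.17% of all genes tested.

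**Figure D5:**
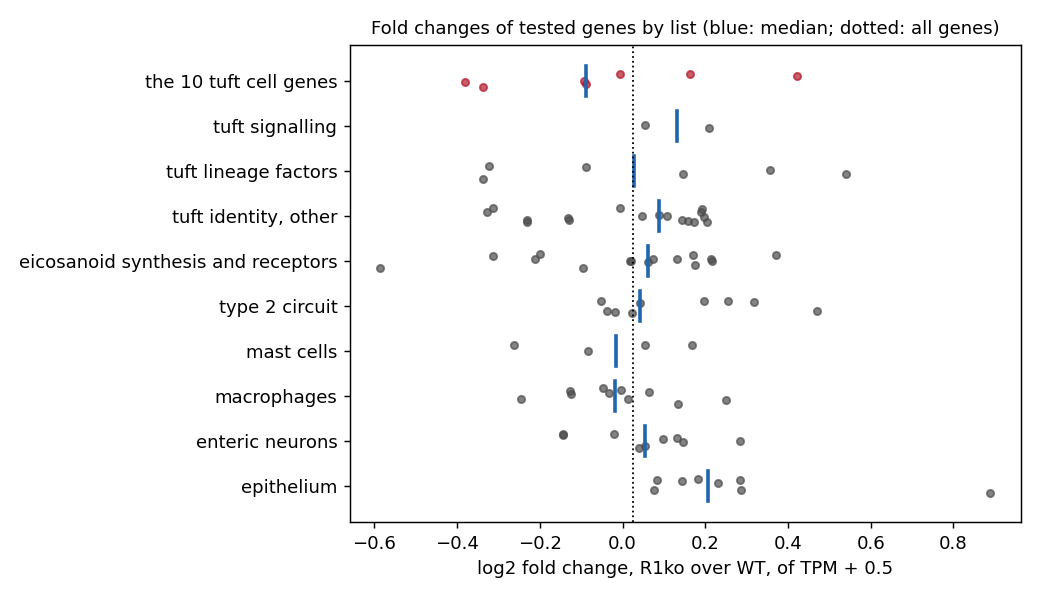
Log2 fold change (R1ko over WT, of TPM + 0.5) of each tested gene, grouped by list; blue lines are medians over a list and the dotted line is the median of all genes tested, 0.02. The 7 tuft cell genes spread from -0.38 to 0.42 around a median of -0.09.

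Other cells of the colon wall that can express these genes were measured by their own markers. Mast cell markers summed to 19.0 to 21.7 TPM in R1ko and 16.7 to 23.2 TPM in WT, with 4 of 12 tested and 0 called. The largest part was listed under Kit, at 8.32 to 10.5 TPM over the 6 libraries, and whether that value measures mast cells was not tested. Among the defining markers, Cpa3 had 0.390 to 0.770 TPM in R1ko and 0.639 to 0.810 TPM in WT. The smallest p-values on the mast cell list belonged to the protease genes Tpsb2 (log2 fold change -0.26) and Cma1 (0.17). Macrophage markers summed to 233.7 to 368.0 TPM in R1ko and 237.8 to 365.1 TPM in WT, with 10 of 10 tested and 0 called. Cd14 (0.25) and Csf1r (-0.25), receptors of monocytes and macrophages, had the smallest p on that list. Neither sum separated the groups, and the part of these cells in the values of Alox5, Alox5ap, Ptgs1 and Hpgds was not tested. Enteric neuron markers (9 of 10 tested, 0 called) summed to 79.4 to 85.4 TPM in R1ko and 60.0 to 85.8 TPM in WT. The smallest p-values on that list were those of Uchl1 (log2 fold change 0.28) and Stmn2 (-0.14). Their part in the values of Dclk1 and Avil was not tested.

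Among 9 neutrophil markers, 3 were tested and S100a9 passed (log2 fold change 1.54, limma adjusted p = 0.00656), with limma adjusted p = 0.273 after scaling. Of all genes tested, 0.0912% were called higher. S100a8 had a log2 fold change of 1.09 that did not pass (limma adjusted p = 0.0633). Of the 3 tested, 2 were higher in R1ko without overlap, S100a8 among them, as were 3.17% of all genes tested. Summed, the 9 gave 217.7 to 242.0 TPM in R1ko and 152.0 to 211.7 TPM in WT. Most of that was listed under Ly6g, at 137.0 to 184.3 TPM over the 6 libraries, and whether that value measures neutrophils was not tested. The 6 genes other than Ly6g, S100a8 and S100a9 summed to 1.67 to 2.63 TPM in R1ko and 1.58 to 2.39 TPM in WT. Among these Cxcr2, a chemokine receptor of neutrophils, had 0.474 to 0.917 TPM in R1ko and 0.875 to 1.29 TPM in WT, while Mmp9 had 0.719 to 1.13 TPM in R1ko and 0.233 to 0.728 TPM in WT. Of the eosinophil and basophil markers 1 of 6 was tested and 0 were called, the tested one being Ear2 (log2 fold change 0.24), in sums of 2.02 to 3.32 TPM in R1ko and 1.56 to 2.71 TPM in WT. Neutrophils also express Alox5 and Alox5ap, and their part was not tested.

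Epithelial markers had log2 fold changes above 0 for 8 of 8 genes, with a median of 0.21 (0.18 after scaling) and 0 called. Of all genes tested, 55.7% were above 0. Of the 8, 3 were higher in R1ko without overlap, Cdx2 and Krt20 among them, as were 3.17% of all genes tested. WT replicate 2 was the lowest WT library for each of these markers. They summed to 11367 to 12260 TPM in R1ko and 8906 to 12653 TPM in WT. Cdx2, an intestinal identity factor, had the smallest p (log2 fold change 0.89, limma adjusted p = 0.159), followed by the keratin gene Krt20 (0.29). The part of this list in the values of the tuft cell genes was not tested. Smooth muscle markers (6 tested, 0 called, median -0.07) summed to 6013 to 7187 TPM in R1ko and 5773 to 8238 TPM in WT. Squamous epithelial markers (8 tested, 0 called, median 0.50) ranged from 594.3 to 819.1 TPM in R1ko and from 195.9 to 891.8 TPM in WT, lowest in WT replicate 2. The smallest p-values belonged to Actg2 (-0.22) and Myh11 (-0.18) among muscle markers and to Lor (1.20) and Krt10 (0.71) among squamous markers.

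Outside the 10 genes, the 5 whose scaled levels followed Dclk1, Trpm5 and Avil most closely over the 6 libraries were Aldh3b2, Myh10, Lcn2, Abcb6 and Ephb2, with Pearson correlations between 0.980 and 0.999. All 5 were lowest in WT replicate 2 and overlapped between the groups. The 6 values share that library's low level, and 104 of 14241 genes reached a correlation above 0.9, so the order among them is a description of these libraries.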

How the data were processed

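The authors deposited 1 table of TPM per transcript, quantified with kallisto 0.43.1 on mm10 per the submitters' processing notes; sleuth is named there too and its results were not used. Libraries came from polyadenylated RNA made with the SMARTer low-input kit, per the labels' protocols. The sources used here do not name the transcript set. Of 132639 lines, 1433 repeated a transcript already listed, with no change in value, and were dropped; 43008 transcripts without values and 1380 without a gene were left out. TPM were summed by gene symbol and tested as log2(TPM + 0.5) with limma 3.58.1 in R 4.3.3 (lmFit, eBayes with a variance trend), keeping genes whose mean over all 6 libraries reached 1 TPM. Benjamini-Hochberg adjustment ran over all genes tested (threshold 0.05). Because of the pseudocount, fold changes of low genes come out too small.

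Genes, lists and tests were chosen with earlier results of these data known. The text names the 10 genes, their transcripts, list members that passed or else the 2 with the smallest p, and the 5 genes most alike in pattern. Plcb2, Gng13, Sucnr1, Sh2d7, Espn, Krt18, Vil1, Lrmp, Cpa3, Kit, Cxcr2, Mmp9, S100a8 and Ly6g were named after their values were seen. So were Il4, Il13, Il5 and Il9, and transcripts below 1 TPM. The lists covered tuft signalling, lineage factors and other tuft markers, eicosanoids, the type 2 circuit, and markers of 8 other cell types; 1 further marker list is not reported here. Positions come from GENCODE M21 (mm10) and start windows from RefSeq (GRCm38). Alternatives were other pseudocounts, filters, scalings and variance models, a replicate block and leaving out each library.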

Additional observations from a re-analysis of the deposited data

How the results depend on the processing

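No alternative brought any of the 10 tuft cell genes, their transcripts or the 42 other tuft genes past the threshold. Counts over all genes did move. Against 38 genes and 13 transcripts called, a pseudocount of 0.1 gave 24 genes and 7 transcripts, no filter 2 and 1, and a filter at 5 TPM 142 and 23. Median-of-ratios scaling gave 6 genes, rescaling over transcripts with a gene gave 4 and robust variance estimation gave 83. The cause of these shifts was not tested. With single libraries left out, 19 (without WT replicate 2) to 307 (without WT replicate 1) genes and 1 (without WT replicate 2) to 57 (without R1ko replicate 1) transcripts were called, and the median of the tuft cell genes ran from -0.30 to 0.15, that of Dclk1, Trpm5 and Avil from -0.17 to 0.35 and that of the 4 lipid mediator genes from -0.33 to -0.01. In these fits log2 fold changes ran from -0.26 to 0.0176 for Dclk1, -0.17 to 0.35 for Trpm5, -0.30 to 0.19 for Alox5ap and -0.35 to 0.15 for Ptgs1, each crossing 0 in at least 1, while Hpgds, Alox5 and Avil kept their sign in all. Scaling with WT replicate 2 left out, chosen after seeing the data, gave 21 genes, 3 transcripts and a log2 fold change of -0.064 for Trpm5. Correlations of deviations between libraries of the same replicate number were 0.05, 0.13 and 0.18, and those between different numbers ran from -0.24 to 0.10. The main fit did not pair the samples, though 5 of 6 libraries correlated best with their own number, so pairing by number is not excluded. The replicate block called 71 genes and 1 transcript. The median of Dclk1, Trpm5 and Avil has no value with the filter at 5 TPM. At 3 colons a group, the 95% intervals reached -1.01 for Alox5 and 1.02 for Avil on the log2 scale.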
